A study of Mus musculus with 6 samples.

Results

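The 5-methylcytosine (5mC) peaks of mouse induced pluripotent stem (iPS) cells were set against those of the fibroblasts from which such cells are made. The comparison takes every peak of both 5mC lists, 61171 in iPS cells and 104011 in fibroblasts, or 165182 of the 663518 peaks of the 6 lists in the series. The iPS cells were an established line at passage 10 to 15, obtained by induction of Tet1, Sox2, Klf4 and c-Myc. The fibroblasts were at passage 4 and came from mice made from iPS cells of the same 4-factor system, which the labels call TSKM. Fibroblasts of passage 4 changed to embryonic stem cell medium with doxycycline for 3 days (day 3) are used here as a further stage, and the 5-hydroxymethylcytosine (5hmC) lists of all 3 stages as further readouts of the same cells. All groups share the strain OG2-GFP/Rosa26-M2rtTA, so the fibroblasts carry the drug-activated transactivator too. Per the labels the iPS cells were grown on feeder fibroblasts in a medium with LIF, and a short plating step was used to remove the feeders, while the fibroblasts were expanded in feeder medium. Culture, passage number and feeder cells therefore differ together with cell type and cannot be told apart from it. The iPS sample is a single line, the labels give no age for the mice, and peak lists of modified DNA hold no expression with which the labelled cell types could be checked.

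5mC is the methyl mark that DNA methyltransferases place on cytosine, in mammals mostly where a guanine follows. Dnmt1 copies it at replication, and Dnmt3a and Dnmt3b place it anew. Tet enzymes oxidise it to 5hmC, which can be an intermediate on the way to unmodified cytosine or a lasting mark. During reprogramming, somatic methylation has to be removed from genes of the pluripotent state, and pluripotent cells methylate other regions again.

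Each library gave 1 peak list and no stage has a replicate, so nothing below is tested between cell types. Shares of peaks carry 95% Wilson intervals, which cover counting error only, and p-values are not given. A peak was called kept where it overlapped a peak of the other 5mC list by at least 1 bp, lost where a fibroblast peak had no iPS peak, and gained where an iPS peak had no fibroblast peak. These words describe membership of the lists. A region without a peak may still hold 5mC below the caller's limit, and the read depth of each library is unknown. The lowest score was 50 in both lists, the median score was 76.3 in iPS cells and 90.4 in fibroblasts, and 29.0% of iPS peaks and 43.6% of fibroblast peaks reached a score of 100. The part of depth in the results below was not tested.

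In the whole lists, most iPS 5mC peaks lay where fibroblasts had a 5mC peak, while most fibroblast peaks had no iPS counterpart. With equal numbers of best-scoring peaks this split was not seen, since 51.8% of iPS peaks and 50.3% of fibroblast peaks then had a counterpart. Of the iPS peaks, 67.8% overlapped a fibroblast peak (67.4 to 68.1), which left 19721 gained peaks. Of the fibroblast peaks, 39.4% overlapped an iPS peak (39.1 to 39.6), which left 63081 lost peaks. These 2 shares are the background for every count of kept peaks below. Lost peaks thus outnumbered gained peaks, and they covered 60.6 Mb, against 16.5 Mb for gained peaks. The lists had 38.6 Mb in common, which was 64.7% of the iPS covered length and 34.9% of the fibroblast covered length, or 29.3% of the 132 Mb covered by either. For scale, iPS peaks covered 2.32% of the genome span that the lists reach, and fibroblast peaks covered 4.30%.

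Where both lists had a peak, the peaks were nearly in register. In the 37758 pairs in which 1 iPS peak met 1 fibroblast peak and neither met another, the centres lay a median of 81 bp apart, with quartiles of 35.5 and 176.5 bp. The iPS peak was the narrower in 67.4% of these pairs, with a median width of 919 bp in iPS cells and 1022 bp in fibroblasts. Of the kept iPS peaks 39.3% lay wholly inside fibroblast peaks, and of the kept fibroblast peaks 13.8% lay wholly inside iPS peaks. Splits and fusions were few. Only 977 iPS peaks spanned 2 fibroblast peaks and 22 spanned more, and 1373 fibroblast peaks held 2 iPS peaks and 80 held more. Across the pairs, the score ranks of both lists correlated moderately (Spearman rho 0.42, 37758 pairs), as did the widths (rho 0.45). The pairs share DNA sequence and hence CpG content, on which capture by the antibody depends.

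The 1 bp rule decided few peaks. Among kept peaks, under 10% of the peak was covered in 0.750% of iPS peaks and in 1.03% of fibroblast peaks. Just outside the rule, 514 gained peaks (2.61%) and 754 lost peaks (1.20%) ended within 100 bp of a peak of the other list. The median gap to the nearest peak of the other list was 3566 bp for gained peaks and 6300 bp for lost peaks. Of the lost peaks 37.6% lay 10 kb or farther from any iPS peak, against 23.7% of gained peaks at that distance from a fibroblast peak. The iPS list is the shorter, with 61171 peaks against 104011, so gaps to it tend to be longer from any position. Whether the gaps of lost peaks differed beyond this was not tested.

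The strongest peaks of each list were the most often kept. By deciles of score, each holding 10% of a list, in the lowest of the iPS list 45.9% of the peaks lay on a fibroblast peak (44.6 to 47.1), and in the highest decile 95.5% did (94.9 to 96.0). In the fibroblast list the share on an iPS peak was 18.7% in the lowest decile (17.97 to 19.5) and 74.7% in the highest (73.9 to 75.6). Both shares were higher in each decile than in the decile before it. The highest iPS decile, with scores from 157.18, held 276 gained peaks, whereas the highest fibroblast decile, with scores from 242.86, still held 2628 lost peaks. Gained peaks had a median score of 63.9 and kept iPS peaks one of 85.2. Lost peaks had a median score of 78.2 and kept fibroblast peaks one of 122.

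**Figure D1:**
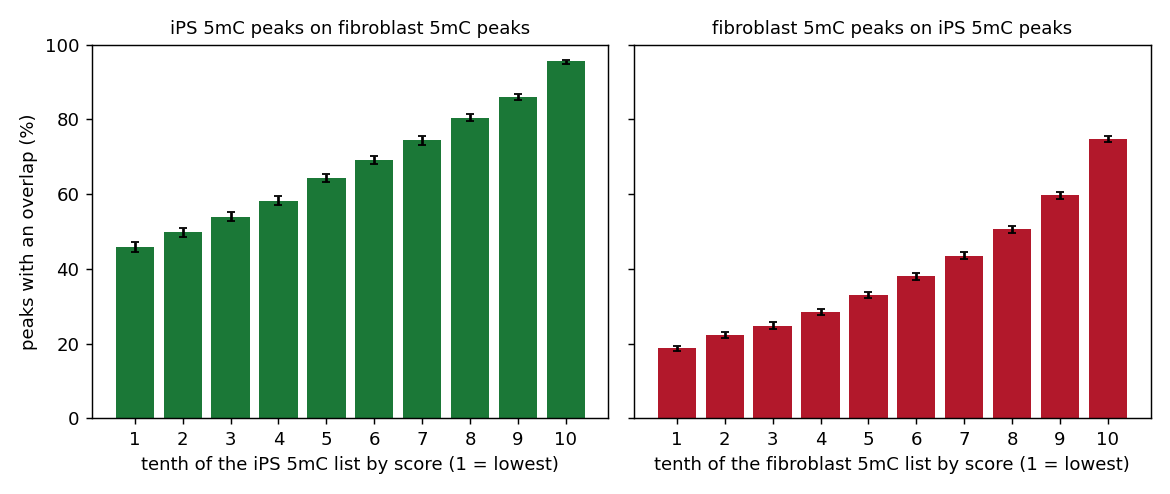
Percentage of 5mC peaks that overlap a peak of the other 5mC list (vertical axis), for deciles of the iPS list (left) and of the fibroblast list (right) ordered by score; bars show the share and whiskers its 95% Wilson interval. The share climbs with score in both lists, to 95.5% for iPS peaks and 74.7% for fibroblast peaks.

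Wide peaks were kept more often, and they also had higher scores. All 226 iPS peaks of at least 3 kb lay on a fibroblast peak, and 776 of the 842 fibroblast peaks of that width lay on an iPS peak. Among peaks of 500 to 999 bp the shares were 60.6% in iPS cells and 29.5% in fibroblasts. Within the middle quintile of each list by score, where each quintile holds 20% of the peaks, width made little difference. There, peaks of 500 to 999 bp, of 1000 to 1499 bp and of 1500 bp or more were kept in 66.6%, 68.0% and 67.6% of cases in the iPS list. The last of these rests on 34 peaks, with an interval of 50.8 to 80.9. The fibroblast list gave 35.0%, 37.0% and 33.1% for the same widths, the last with an interval of 27.8 to 38.9. Gained peaks were narrow, with a median of 805 bp and none as wide as 3 kb, and lost peaks had a median of 893 bp.

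With equal numbers of best-scoring peaks both shares are nearly even by construction, so only their level can be read. Their level was lower than in the whole lists for iPS peaks and higher for fibroblast peaks. The even shares above came from the best 61171 of each list, the length of the iPS list. With the best 10000 the shares were 43.2% and 41.9%, and with the best 1000 they were 41.4% of iPS peaks and 40.9% of fibroblast peaks. The best peaks of each list were mostly present in the other list, though often not among its best. Of the best 1000, 99.7% of iPS peaks lay on some fibroblast peak of the whole list, and 89.0% of fibroblast peaks lay on some iPS peak. Thus 3 of the 1000 best iPS peaks were gained and 110 of the 1000 best fibroblast peaks were lost, against whole lists that differ in length. At a score of 3100 or more, a value at which many peaks of each list coincide, 0 of 36 iPS peaks were gained and 0 of 47 fibroblast peaks were lost.

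The day-3 5mC list, a separate library, held most of the lost peaks and about as many of the gained peaks as it missed. It was the longest of the 5mC lists, with 165869 peaks. These covered 6.60% of the span, against 4.30% for fibroblast and 2.32% for iPS 5mC peaks. A longer list overlaps more peaks of every class, so the shares below do not date the losses. Over all iPS 5mC peaks 80.5% had a day-3 5mC peak, and over all fibroblast 5mC peaks 89.7% did. Lost peaks were present at day 3 in 85.7% of cases (85.4 to 85.9) and kept fibroblast peaks in 95.8% (95.6 to 96.0). This difference of -10.1 percentage points was -5.47 with scores from 100 and -2.77 with equal numbers. Gained peaks were present at day 3 in 48.5% of cases (47.8 to 49.2), against 95.7% of kept iPS peaks (95.5 to 95.9). In the highest score quintile of the fibroblast list, lost and kept peaks had a day-3 5mC peak equally often, in 99.9% of cases each. There 6821 of 6828 lost peaks were on the day-3 5mC list.

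5hmC was next read on the same regions. In iPS cells 67.2% of all iPS 5mC peaks and 67.2% of all fibroblast 5mC peaks had a 5hmC peak. Lost peaks had one in 61.2% of cases (60.8 to 61.6) and kept fibroblast peaks in 76.3% (75.9 to 76.7). The share was lower for lost than for kept peaks in each score quintile, with 47.1% and 55.3% in the lowest and 85.3% and 92.1% in the highest. Regions that left the 5mC list therefore carried iPS 5hmC often, but less often than regions that stayed on it. Lost peaks with a 5mC peak at day 3 and a 5hmC peak in iPS cells made up 55.1% of the lost class, 34783 peaks, against 74.1% of kept fibroblast peaks. Those with neither made up 8.26% of lost and 2.00% of kept peaks. The lost minus kept difference in iPS 5hmC was -15.1 percentage points, and -9.81 with equal numbers.

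Fibroblast 5hmC set lost peaks apart as well. Of all fibroblast 5mC peaks 11.1% had a fibroblast 5hmC peak. The share was 8.02% for lost peaks (7.81 to 8.24) and 16.0% for kept peaks (15.6 to 16.3). When the lists were limited to scores from 100, it was 5.01% for lost and 12.3% for kept peaks. It stayed between 7.51% and 8.77% for lost peaks over the 5 score quintiles, and between 15.2% and 17.0% for kept peaks. Regions with both marks in fibroblasts were thus more often on the iPS 5mC list than regions with 5mC alone. Counted from the 5hmC side, 24.7% of all fibroblast 5hmC peaks had an iPS 5mC peak. Those with fibroblast 5mC had one in 55.2% of cases (54.2 to 56.1), and those without 5mC in 13.3% (13.0 to 13.7). This second count sets both marks against 5hmC alone, so it does not bear on the comparison with 5mC alone.

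On the day-3 5hmC list the classes hardly differed when pooled, but did so at like scores. Of all fibroblast 5mC peaks 30.9% had a day-3 5hmC peak, with 31.0% of lost peaks (30.6 to 31.4) and 30.6% of kept peaks (30.2 to 31.1). At like scores lost peaks had the higher share in each of the 5 quintiles, with 24.3% for lost and 20.4% for kept peaks in the lowest and 47.7% for lost and 41.3% for kept peaks in the highest. Kept peaks had higher scores, and day-3 5hmC was more frequent on high-scoring peaks of both classes. Lost peaks also had the higher share in each class of width from 500 bp, with 27.2% of lost and 23.2% of kept peaks of 500 to 999 bp.

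**Figure D2:**
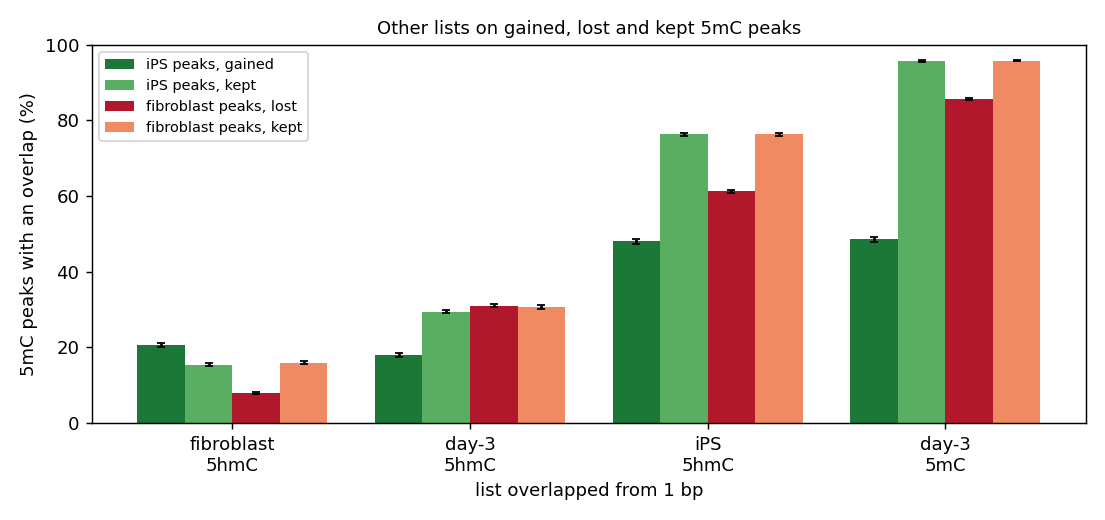
Percentage of 5mC peaks that overlap a peak of 4 other lists (horizontal axis), for gained and kept iPS peaks and for lost and kept fibroblast peaks; whiskers are 95% Wilson intervals. Gained peaks have the highest share on fibroblast 5hmC (20.7%) and the lowest on day-3 5mC (48.5%).

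Gained peaks stood out by the 5hmC that the same regions had in fibroblasts. Of all iPS 5mC peaks 17.1% had a fibroblast 5hmC peak. Gained peaks had one in 20.7% of cases (20.2 to 21.3), kept iPS peaks in 15.4% (15.1 to 15.8). The difference was 5.32 percentage points, 12.3 with scores from 100 and 3.79 with equal numbers. The gap widened with score. In the lowest score quintile of the iPS list the shares were 14.3% for gained and 10.97% for kept peaks, and in the highest quintile they were 49.3% (46.4 to 52.2) and 21.7% (20.99 to 22.5), where 559 of 1133 gained peaks had fibroblast 5hmC. The order was the opposite for the later 5hmC lists. For day-3 5hmC, against 25.7% of all iPS 5mC peaks, gained peaks had 17.9% and kept peaks 29.5%. For iPS 5hmC, gained peaks had 48.0% and kept peaks 76.3%.

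The gained peaks on fibroblast 5hmC numbered 4090. Of these, 76.5% also had 5hmC in iPS cells (75.2 to 77.8), against 40.6% of the 15631 gained peaks off fibroblast 5hmC (39.8 to 41.3). They were less often on the day-3 5mC list, at 41.6% against 50.3%. Their median score was 71.9, against 62.4 off fibroblast 5hmC. Among fibroblast 5hmC peaks without fibroblast 5mC, those in the highest score quintile had an iPS 5mC peak in 30.0% of cases (28.8 to 31.3), and those in the lowest in 6.67% (6.10 to 7.29). A further 4719 gained peaks, 23.9% of the class, overlapped no peak of the 4 other lists, against 1.58% of kept iPS peaks and 6.73% of lost peaks.

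**Figure D3:**
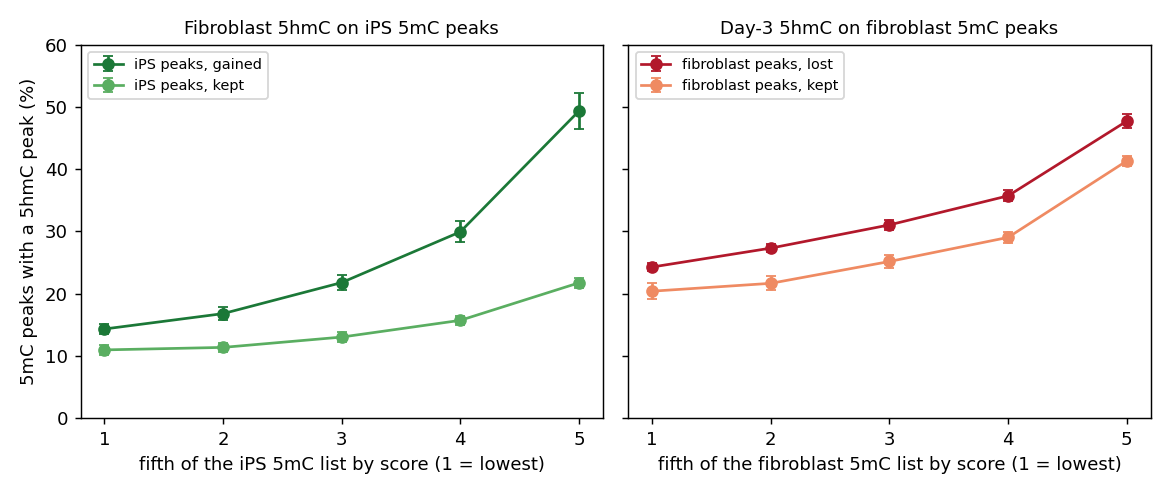
Percentage of 5mC peaks with a fibroblast 5hmC peak, for gained and kept peaks in quintiles of the iPS list by score (left), and with a day-3 5hmC peak, for lost and kept peaks in quintiles of the fibroblast list by score (right); whiskers are 95% Wilson intervals. Gained peaks reach 49.3% in the highest quintile where kept peaks reach 21.7%, and lost peaks lie above kept peaks in each quintile.

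The overlaps were local. Fibroblast 5hmC peaks covered 19.5% of the centres of gained peaks and 2.53% of the positions 1 kb towards higher coordinates, and 5.93% and 2.52% for lost peaks. iPS 5hmC peaks covered 43.4% of gained centres and 18.6% of the positions 1 kb away. For lost peaks these values were 57.7% and 19.95%, and for kept fibroblast peaks 72.2% and 28.3%. At 5 kb the iPS 5hmC coverage was 18.8% around gained, 19.7% around lost and 24.4% around kept fibroblast peaks, so the surroundings of kept fibroblast peaks held more 5hmC as well.

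**Figure D4:**
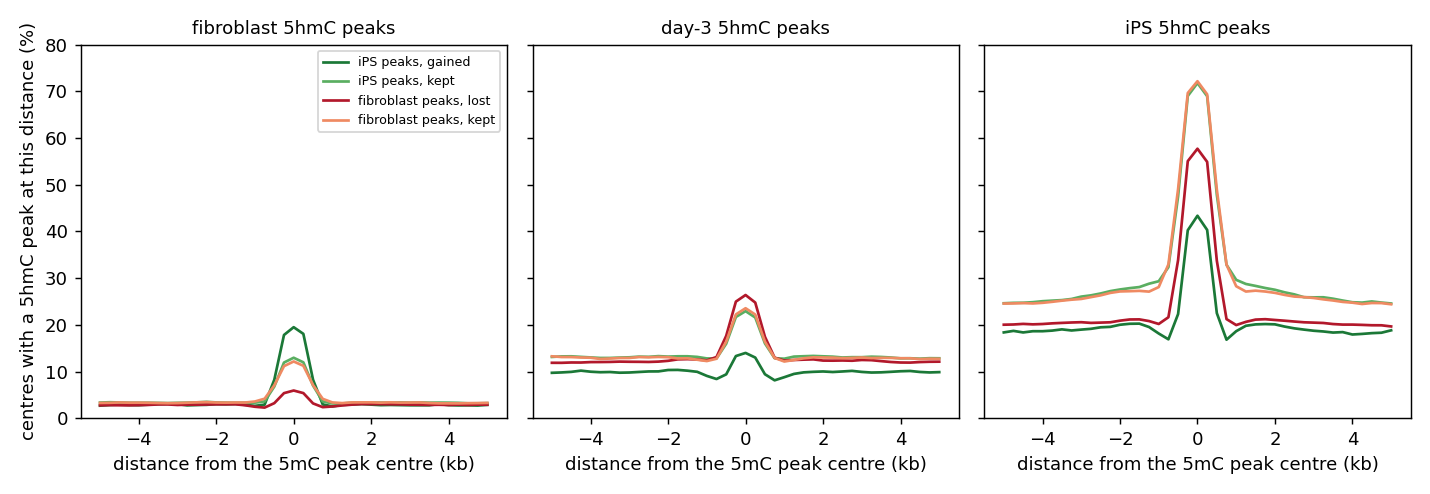
Percentage of 5mC peak centres with a 5hmC peak at a given distance (horizontal axis, kb; negative is towards lower coordinates), for 5hmC peaks of fibroblasts, day 3 and iPS cells, and for the 4 classes of 5mC peaks. Each curve is highest at the centre, and gained peaks are the highest class for fibroblast 5hmC at the centre (19.5%), though not at 1 kb (2.53%), and the lowest for iPS 5hmC.

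In most windows of 100 kb, 5mC peaks covered less in iPS cells. Of the 16690 windows in which the covered length differed, 13.9% had more in iPS cells and 86.1% had less. The share with more in iPS cells was 38.9% with equal numbers of best-scoring peaks, 4.67% in windows of 1 Mb and 24.0% in windows of 10 kb. Equal numbers did not make the covered lengths equal, at 59.7 Mb in iPS cells and 76.1 Mb in fibroblasts. The covered lengths of both cell types correlated across the 16698 windows covered in either (Spearman rho 0.85), which share CpG content and gene density. Of these windows 76.7% had peaks in both lists, 4.13% in iPS cells only and 19.1% in fibroblasts only. The ratio of covered length, iPS over fibroblast, was much the same for sparse and dense windows. It was 0.486 where fibroblast peaks covered under 2 kb, 0.549 for 2 to 5 kb, 0.546 for 5 to 10 kb, 0.522 for 10 to 20 kb and 0.540 above 20 kb. Windows without any iPS peak were mostly sparse ones, with 2612 of 4694 windows under 2 kb, 508 of 3776 from 2 to 5 kb, 68 of 3616 from 5 to 10 kb, 6 of 3007 from 10 to 20 kb and 0 of 916 above that.

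**Figure D5:**
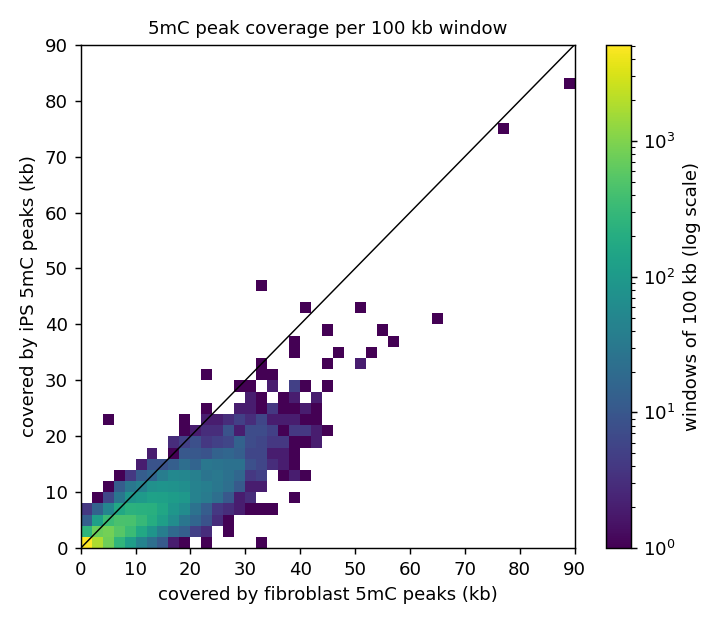
Length covered by 5mC peaks per window of 100 kb in iPS cells (vertical axis, kb) and in fibroblasts (horizontal axis, kb), in bins of 2 kb, with colour for the number of windows on a log scale and the line for equal lengths. Most windows lie below the line, and few with more iPS 5mC lie far from it.

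Large losses were common and large gains rare. In iPS cells 3741 windows had at least 5 kb less 5mC than in fibroblasts and 1059 had at least 10 kb less, while 9 had at least 5 kb more and 2 at least 10 kb more. 5hmC covered more in iPS cells in 99.6% of the windows with the 5 kb losses and in all 9 with the gains, with median differences of 19.5 kb and 9.22 kb. In windows with a smaller 5mC difference 78.0% had more 5hmC, by a median of 3.00 kb. These groups differ in density, since a loss of 5 kb requires at least 5 kb of fibroblast 5mC, while the last group takes in the sparse windows. Across the whole span, 5hmC peaks covered 7.24% in iPS cells and 1.39% in fibroblasts. Whether 5hmC rose more in loss windows than in other windows of like density was not tested.

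The largest loss was on chromosome 8 from 117300001 to 117400000 (mm9, as are all positions), where iPS peaks covered 1.56 kb and fibroblast peaks 33.5 kb. There 26 of 28 fibroblast peaks were lost, with scores from 50.73 to 534.37, and 24 of the 26 were on the day-3 5mC list. Of the 26, 7 lay on iPS 5hmC, a mark that 61.2% of all lost peaks had, and 85.7% of all lost peaks had day-3 5mC. The next losses were on chromosome 4 from 140800001 to 140900000, with 24 of 30 fibroblast peaks lost, and on chromosome 2 from 165600001 to 165700000, with 17 of 24 lost. In these windows 15 of 24 and 11 of 17 lost peaks lay on iPS 5hmC. On chromosome 11 from 119000001 to 119100000, iPS peaks covered 13.0 kb and fibroblast peaks 40.9 kb, and 26 of 35 fibroblast peaks were lost, of which 21 lay on iPS 5hmC. On chromosome 10 from 79400001 to 79500000, iPS peaks covered 12.7 kb and fibroblast peaks 39.4 kb. There 10 of 21 fibroblast peaks were lost, 8 of them on iPS 5hmC, and the other 11 stayed, among them a peak with a score of 3052.57. On chromosomes 8, 4, 2 and 11 most fibroblast peaks of these windows were lost, whereas on chromosome 10 fewer were lost than kept. In each of the 5 windows the kept fibroblast peaks had a larger median width than the kept iPS peaks. The medians were 1666 and 1057.5 bp on chromosome 10, and 1839 and 1141.5 bp on chromosome 2. The windows were chosen by their loss of covered length, to which the width of kept peaks contributes, so the choice itself favours this order. Across the whole lists, the iPS peak was the narrower in 67.4% of the pairs in which neither met another peak. Whether widths in these windows differed beyond this was not tested.

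The largest gain was on chromosome 2 from 77700001 to 77800000, with 22.9 kb in iPS cells and 4.46 kb in fibroblasts. This window held 16 gained peaks with scores from 58.37 to 219.03, of which 7 were on the day-3 5mC list, 4 on iPS 5hmC and 0 on fibroblast 5hmC. In the whole gained class 48.5% were on the day-3 5mC list, 48.0% on iPS 5hmC and 20.7% on fibroblast 5hmC. The day-3 list covered 9.96 kb there, between both stages. The gain on chromosome 14 from 56000001 to 56100000, with 7.97 kb in iPS cells and 0.928 kb in fibroblasts, was also made of separate peaks, 10 gained ones with a median score of 59.8. On chromosome 7 from 146800001 to 146900000, iPS peaks covered 12.5 kb and fibroblast peaks 6.87 kb, and 5 of 12 iPS peaks were gained. Day-3 5mC peaks, from the longest of the 5mC lists, covered 17.7 kb of that window, more than at either other stage. The gain on chromosome Y from 2800001 to 2900000 held no gained peak. Its 3 iPS peaks were up to 21946 bp wide and overlapped 5 fibroblast peaks of up to 16848 bp, and each of the iPS peaks overlapped 5hmC peaks of every stage. In the X window from 166400001 to 166500000, 5 of 13 iPS peaks were gained, and all 12 fibroblast peaks were kept.

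Losses ran in series along the chromosome more often than gains. Runs of at least 5 consecutive fibroblast peaks without an iPS counterpart held 43.5% of the lost peaks, and 20 runs had at least 20 peaks. Runs of at least 5 gained peaks held 9.13% of the gained peaks, and none reached 20. Lost peaks were 60.6% of their own list and gained peaks 32.2% of theirs. The class with the larger share has longer runs even where neighbouring peaks are independent. Clustering beyond these shares was not tested. The longest lost run had 29 peaks over 240 kb on chromosome 1 from 138431230 to 138671015, with 28.3 kb of 5mC in fibroblasts and 42.0 kb at day 3, against 2.45 kb in iPS cells. Of its peaks 24 were listed at day 3, 0 lay on fibroblast 5hmC, 7 on day-3 5hmC and 19 on iPS 5hmC, and iPS 5hmC covered 64.3 kb of the stretch. Over all lost peaks these shares were 85.7% for day-3 5mC, 8.02% for fibroblast 5hmC, 31.0% for day-3 5hmC and 61.2% for iPS 5hmC. The next lost run had 28 peaks over 784 kb on chromosome 7 from 76946257 to 77730078, 14 of them on iPS 5hmC. The third had 27 peaks over 174 kb on chromosome 8 from 34929123 to 35103015, 18 of them on iPS 5hmC. The longest gained runs had 13 peaks each. The first by position, on chromosome 2 from 178253214 to 178465165, had 6 of its 13 peaks on fibroblast 5hmC and 4 on the day-3 5mC list. The others were on chromosome 8 from 129379709 to 129688998, with 2 on fibroblast 5hmC and 8 on day-3 5mC, and on chromosome 11 from 83609741 to 83737513, with 2 and 4. Of all gained peaks 20.7% had a fibroblast 5hmC peak and 48.5% a day-3 5mC peak.

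Peaks in dense neighbourhoods were kept more often than isolated ones. The covered lengths of both lists rose together across windows (Spearman rho 0.85), and score was not held alike here. The part of either in these shares was not tested. An iPS peak that was alone in its window was kept in 51.8% of cases (50.04 to 53.5), and one in a window of 20 to 33 peaks in 84.3% (82.5 to 86.0). For fibroblast peaks the shares were 21.5% alone (20.2 to 23.0) and 49.1% in windows of 20 to 38 peaks (48.3 to 49.99). Complete loss of a dense window was rare. Of the 4077 windows with at least 10 fibroblast peaks, 33 kept none, 407 kept at most 20% and 47 kept at least 80%.

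The autosomes resembled each other. The ratio of iPS to fibroblast peak numbers ranged from 0.553 on chromosome 3 to 0.614 on chromosome 18, with a median of 0.592. The share of fibroblast peaks kept ranged from 35.0% on chromosome 3 (33.7 to 36.4) to 42.3% on chromosome 15 (40.9 to 43.7). Chromosome 3 was also the autosome with the fewest peaks per Mb, 16.8 in iPS cells and 30.3 in fibroblasts. Chromosome X had only 108 iPS and 243 fibroblast peaks, a ratio of 0.444, and kept 31.7% of the fibroblast peaks (26.2 to 37.8). That was 0.670 iPS and 1.51 fibroblast peaks per Mb, far below every autosome in both lists. The cause was not tested, and X values rest on few peaks. Chromosome Y had 50 iPS and 52 fibroblast peaks and kept 47 of the 52. Towards the distal ends of the autosomes loss was slightly less frequent. In the last 5 Mb reached by the lists 43.0% of fibroblast peaks were kept (41.8 to 44.3). Away from both ends 39.1% were kept (38.8 to 39.4), and the first 5 Mb gave 40.8% (39.0 to 42.7). The last 5 Mb held 6158 fibroblast peaks and the first 5 Mb held 2795. Peak density and score were not held alike in this comparison, and their part was not tested.

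The 3 best-scoring lost peaks were wide, as high-scoring peaks tended to be, and had 5hmC at the later stages. The first was on chromosome 7 from 25864638 to 25867494, 2857 bp wide with a score of 2100.78. The second was on chromosome 7 from 50929585 to 50933461, with a score of 2073.91, and the third on chromosome 6 from 48545997 to 48548671, with a score of 1931.79. Each had 5mC at day 3 and 5hmC at day 3 and in iPS cells, and none had fibroblast 5hmC. In the highest score quintile of the fibroblast list, 99.9% of lost peaks had day-3 5mC and 47.7% day-3 5hmC. In that quintile 85.3% of lost peaks had iPS 5hmC and 8.76% had fibroblast 5hmC. The best-scoring gained peaks each lay on a fibroblast 5hmC peak. They were on chromosome X from 166434725 to 166436249, with a score of 1049.47, on chromosome 4 from 153584637 to 153586161, with 320.78, and on chromosome 11 from 20278483 to 20279920, with 315.38. Those on chromosomes 4 and 11 also had 5hmC in iPS cells, and that on chromosome X did not. Of gained peaks in the highest score quintile of the iPS list, 49.3% had a fibroblast 5hmC peak and 72.6% an iPS 5hmC peak. Of the 33 iPS and 45 fibroblast peaks tied at a score of 3100, 3 pairs are described, which the breaking of ties by position placed on chromosome 1. In iPS cells these peaks ran from 87487468 to 87490139, from 90125719 to 90148383 and from 90148511 to 90167152. In fibroblasts they ran from 87487166 to 87490380, from 90125684 to 90148410 and from 90148498 to 90167342. All had a score of 3100 and overlapped peaks of the other 4 lists. The wide pair members, of 22665 and 18642 bp in iPS cells and 22727 and 18845 bp in fibroblasts, had nearly the same extent in both.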

How the data were processed

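Genomic DNA was precipitated with an antibody against 5mC or 5hmC and sequenced. Per the labels' protocols, 500 ng of adapter-ligated DNA entered each reaction, 14 to 16 cycles of amplification followed, and fragments of 300 to 500 bp were purified. Per the submitters' processing notes, the tools were MACS 1.4.1, Bowtie 0.12.7 and CASAVA 1.8, and the build was mm9. The authors deposited 1 peak list per library with a score per peak, taken as -10 times log10 of the MACS p-value, though no header says so. No source used here gives a control library, caller settings, duplicate handling or read numbers. A deeper library lists more peaks at higher scores from the same DNA, so scores were ranked only within a list.

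Groups follow the titles in the labels. Overlaps, windows of 100 kb and classes were computed with Python 3.11.15, numpy 2.4.6 and scipy 1.17.1, and the overlap counts were checked against bedtools 2.31.1 and tested on simulated data. Ties were broken by position, and positions count from 1. No annotation or sequence of mm9 was used here, so peaks are given no genes and no sequences. Regions named are the 5 windows with the largest loss and the 5 with the largest gain, the 3 best-scoring lost and gained peaks, the first 3 pairs by rank in both lists (tied scores, so taken by position), and the 3 longest runs of each class. The members and these rules were chosen with earlier results of these data known.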

Additional observations from a re-analysis of the deposited data

Results flagged for a closer look

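The 5mC and 5hmC lists went in opposite directions between the same cells. The iPS list was 0.588 times as long as the fibroblast list for 5mC and 4.12 times as long for 5hmC. Each length comes from 1 library, so no test of this difference was made.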

How the results depend on the processing

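No paired analysis was possible because each mark and cell type has 1 library. The share of iPS 5mC peaks on fibroblast peaks, 67.8% as reported, was 70.8% when both lists were limited to scores from 100, 51.8% with equal numbers of best-scoring peaks, 65.7% with an overlap of 50% of the peak, 65.6% with the centre inside the other peak and 74.9% with the other list widened by 1000 bp. The share of fibroblast peaks on iPS peaks, 39.4% as reported, was 27.6%, 50.3%, 35.9%, 36.5% and 47.6% in the same order, and 41.1% with peaks within 1000 bp joined. The ratio of peak numbers was 0.392 with a score of at least 100 and 0.622 with peaks joined, and that of covered length was 0.388 and 0.531, and 0.538 on autosomes. The share of differing windows with more 5mC in iPS cells was 10.5% with a score of at least 100, 4.67% over 1 Mb and 24.0% over 10 kb. It was 38.9% with equal numbers, where the fibroblast peaks still covered 76.1 Mb and the iPS peaks 59.7 Mb. The cause was not tested. None of these turned a ratio above 1 or a window share above 50%, but equal numbers turned the share of fibroblast peaks on iPS peaks above 50%. The differences between lost or gained and kept peaks in iPS 5hmC, day-3 5mC and fibroblast 5hmC kept their sign in all 30 recounts; these recounts were chosen after seeing the data. The differences that moved by over 1.5 times, in day-3 5mC and iPS 5hmC for lost peaks and in fibroblast 5hmC for gained peaks, are given beside those results. Chromosome 3 had the lowest share of kept fibroblast peaks among the autosomes in each recount, while the highest was on chromosome 15, 19 or 7. Unknown depth limits every count.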
